A study of Homo sapiens with 2 samples.

Results

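The subject is the family of protein arginine methyltransferase genes, PRMT1, PRMT2, PRMT3, CARM1, PRMT5, PRMT6, PRMT7, PRMT8 and PRMT9, together with WDR77, which encodes the partner protein of PRMT5. These 10 genes were chosen by name, and each was found once among the 62700 genes deposited. RNA came from TCam-2, a long-established human line of seminoma origin, a type of testicular germ cell cancer. The cells were transduced with FLAG-tagged DDX53, a helicase gene of the DEAD-box family, and are labelled as overexpressing it. There is 1 group of 2 replicate libraries of polyadenylated RNA, and the promoter of the construct is not given in the sources used here. The study's controls were cells that received FLAG-tagged GFP and cells that were not transduced, and its question was which genes DDX53 alters in level or splicing. Those control libraries were not analysed here, so levels and transcripts are described within the DDX53 cells, and the only comparison of libraries is that of the replicates.

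Arginine methyltransferases transfer methyl groups from S-adenosylmethionine to arginines of histones, RNA-binding proteins and many other proteins. Type I enzymes (PRMT1, PRMT2, PRMT3, CARM1, PRMT6 and PRMT8) can place both methyl groups on the same nitrogen, type II enzymes (PRMT5 and PRMT9) place them symmetrically, and the type III enzyme PRMT7 places a single group. PRMT5 works in a complex with WDR77, also called MEP50, a WD-repeat protein that helps it bind substrates. In the germ line PRMT5 is known from mouse primordial germ cells, where it acts with the repressor PRDM1 (BLIMP1), and from the methylation of PIWI and Sm proteins, which Tudor-domain proteins then bind.

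The gene table gave 24137664 reads in replicate 1 and 22198929 reads in replicate 2 once whole reads were recovered. Levels of a gene are given in CPM, its reads scaled to a common library total. Levels compared between genes are in TPM unless another measure is named. TPM also allow for transcript length and were summed over the transcripts of a gene. The germ cell tumour markers POU5F1, NANOG, TFAP2C, SOX17, KIT, PRDM1 and NANOS3 were all detected, that is, at 1 CPM or more in both libraries, and summed to 4163 CPM in each. Of 2 markers of embryonal carcinoma, DNMT3B was detected, at 124 and 98.4 CPM. SOX2, with 24 reads in each library, lay at the threshold, at 0.994 and 1.08 CPM, and was not counted as detected. None of 3 markers of later germ cells was detected, with DAZL and SYCP1 at 0 reads and DDX4 at 7 and 4. Of 6 markers of testis somatic cells 3 were detected, GATA4, SOX9 and AMH. The 6 summed to 54.0 and 49.2 CPM, most of it from GATA4, at 39.8 and 38.5 CPM. DDX53 itself was at 6.05 CPM in replicate 1 and 6.62 CPM in replicate 2, from 146 and 147 reads. By mean CPM 23.8% of detected genes were lower. Such shares, also given for PRMT1 and PRMT5, make no allowance for length. With no control library analysed here, the level of DDX53 does not check the label of overexpression. The labels do not say whether the replicates are separate cultures, so differences between these 2 libraries may be technical.

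Of the 10 genes, 9 were detected, every one except PRMT8. Among all genes deposited, 21.7% were detected, and among protein-coding genes 61.7%. PRMT1 led by level per length, with 394 ± 13.1 TPM (SD, n = 2), and PRMT9 was the lowest detected gene, with 3.53 ± 0.141 TPM (SD, n = 2). Between them, in falling order, came CARM1, PRMT5, PRMT2, WDR77, PRMT7, PRMT3 and PRMT6. Of the 9 neighbouring pairs in this order only PRMT5 and PRMT2 overlapped between libraries. The order is a description over 2 libraries, with no test. With CPM per kilobase of merged exons instead of TPM, 5 of the 10 genes kept their place, among them the first 3, and PRMT7 went from place 6 to place 8.

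**Figure D1:**
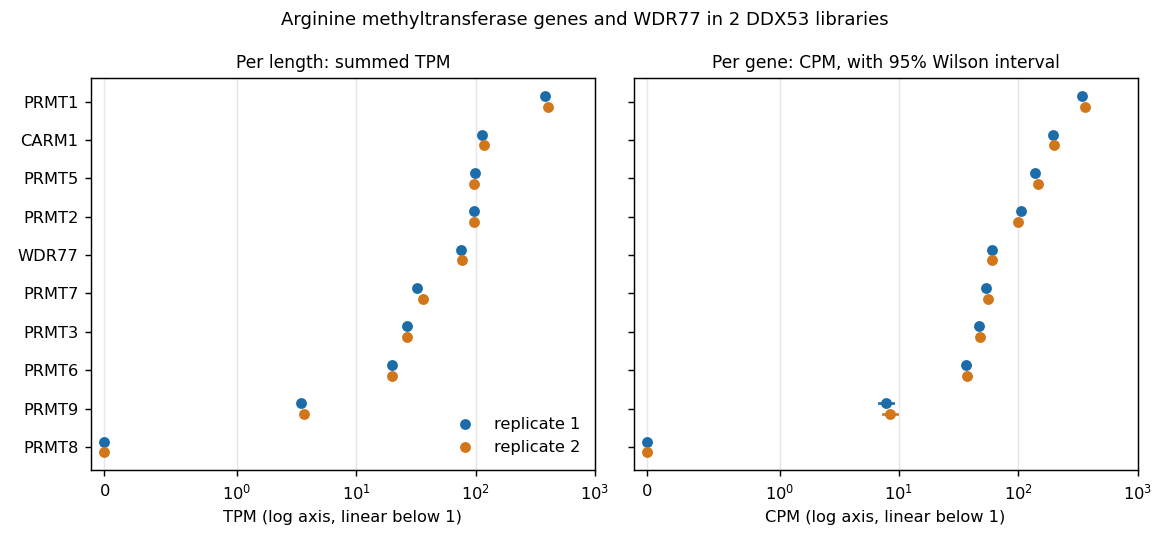
Level of each gene in both libraries, on the left as summed TPM and on the right as CPM with its 95% Wilson interval where the gene had reads, both on log axes that are linear below 1. Genes are ordered by mean TPM; PRMT1 stands apart at the top, PRMT9 lies below the other detected genes and PRMT8 is at 0 in both libraries.

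Together the 9 methyltransferase genes summed to 775 TPM in replicate 1 and 802 TPM in replicate 2. PRMT1 alone held 49.6% and 50.3% of that sum. Type I genes held 82.7% and 82.9%, type II genes 13.1% and 12.6%, and PRMT7, the type III gene, 4.19% and 4.52%. These are shares of RNA and say nothing of enzyme activity. The type II share depended on the measure of length, with a mean of 22.0% by CPM per kilobase of merged exons against 12.8% by TPM.

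PRMT1 encodes the enzyme to which most asymmetric arginine methylation in human cells is ascribed. The gene lies on the plus strand of chromosome 19, from 49675786 to 49689029 (GENCODE 29, GRCh38). It received 8292 reads, or 344 CPM, in replicate 1 and 8002 reads, or 360.5 CPM, in replicate 2. By mean CPM 96.6% of detected genes were lower than PRMT1. By length it stood at 385 TPM in replicate 1 and 403 TPM in replicate 2, a mean 3.43 times that of CARM1, the next gene. A pair of complete coding transcripts carried most of this. PRMT1-201, which encodes 353 residues, made up 59.8% of PRMT1 TPM in replicate 1 and 66.1% in replicate 2. PRMT1-202, which encodes 371 residues, held 27.8% and 22.2%. They differ in the coding sequence by an exon of 54 bases near its start, chr19:49679872-49679925, which is coding exon 2 of the 11 in PRMT1-202. This exon is known to carry a nuclear export signal. It is shown in capitals between 15 bases of flanking sequence on each side, read from the GENCODE 29 transcript.
PRMT1-202: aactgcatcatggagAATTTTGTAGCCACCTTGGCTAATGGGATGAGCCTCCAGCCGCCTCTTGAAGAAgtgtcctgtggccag
Over all PRMT1 transcripts that contain or skip the exon, those with it held 32.3% of TPM in replicate 1 and 26.0% in replicate 2. The form without it thus led in both libraries.

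CARM1 (PRMT4) methylates histone H3 and splicing and chromatin proteins as a coactivator of transcription. It lies on the plus strand of chromosome 19, from 10871513 to 10923070, and was at 194 CPM in replicate 1 and 201 CPM in replicate 2 (113 and 117 TPM). The full-length coding transcript CARM1-201, of 608 residues, held 50.9% and 51.5% of the gene's TPM. CARM1-202, of 585 residues, held 18.9% and 19.7%. The latter skips coding exon 15 of 16, chr19:10921375-10921443, an exon of 69 bases that holds the arginine on which CARM1 methylates itself. The skipped exon is in capitals, with 15 flanking bases on each side.
CARM1-201: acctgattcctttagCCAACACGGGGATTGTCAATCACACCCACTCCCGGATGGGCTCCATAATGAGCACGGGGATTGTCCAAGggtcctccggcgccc
Inclusion of this exon was 81.1% in replicate 1 and 80.1% in replicate 2, by TPM of transcripts that contain or skip it. A transcript annotated without its start, CARM1-204 of 674 bases, held 27.8% ± 1.66 (SD, n = 2) of the gene's TPM and counts as including. Among complete coding transcripts alone the mean inclusion was 72.6%. The gene shares 19.9% of its exonic bases with YIPF2 on the opposite strand, which had 1099 and 1041 reads of its own.

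**Figure D2:**
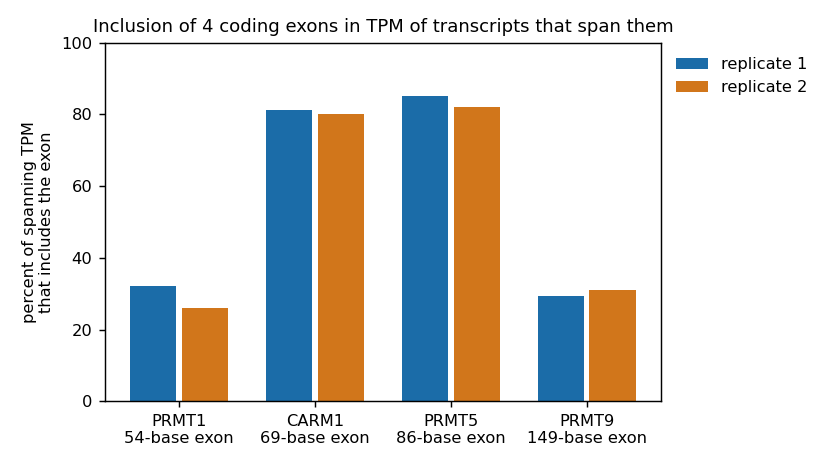
Share of TPM, in percent, in transcripts that include a given coding exon, for PRMT1, CARM1, PRMT5 and PRMT9, with 1 bar per library. The share is among transcripts that contain or skip the exon (spanning TPM on the axis). CARM1 and PRMT5 include their exons at 80.1% or more in both libraries, and PRMT1 and PRMT9 at 32.3% or less.

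PRMT2, an enzyme with an SH3 domain and weak activity, lies on the plus strand of chromosome 21, from 46635167 to 46665124. It was at 105 CPM in replicate 1 and 99.9 CPM in replicate 2, or 97.3 and 97.9 TPM. By TPM its level cannot be told from that of PRMT5 in these libraries. By CPM per kilobase of merged exons it was lower, at 13.1 and 12.4 against 40.0 and 42.4 in PRMT5. Its TPM did not come mainly from the longest reading frame. PRMT2-206, of 433 residues, held 14.3% in replicate 1 and 14.8% in replicate 2. The top transcript was PRMT2-204, of 253 residues, with 40.0% in each library. PRMT2-211, annotated as a retained intron, held 23.7% and 21.3%. PRMT2-204 reads past the end of an exon of PRMT2-206 into the intron that follows and lacks the last 5 coding exons of that transcript. The added 105 coding bases, chr21:46649740-46649844, are in capitals below, with 15 bases on each side.
PRMT2-204: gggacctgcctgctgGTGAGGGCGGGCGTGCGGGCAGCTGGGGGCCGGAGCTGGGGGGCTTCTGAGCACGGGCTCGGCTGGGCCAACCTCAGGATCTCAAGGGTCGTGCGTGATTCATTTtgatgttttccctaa

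PRMT3 is a cytosolic enzyme whose best known substrate is the ribosomal protein RPS2. On the plus strand of chromosome 11, from 20387530 to 20509294, it had 46.6 CPM in replicate 1 and 47.9 CPM in replicate 2 (26.6 and 26.8 TPM). The coding transcript PRMT3-202 held 88.5% of its TPM in replicate 1 and 97.1% in replicate 2. The difference lay in PRMT3-201, annotated as a target of nonsense-mediated decay (the pathway that degrades RNAs with an early stop), which had 2.77 TPM in replicate 1 and is listed at 0 in replicate 2. The shift of 8.52 points exceeded that of 82.0% of the 7040 genes compared in this way, and its counting error is unknown, since TPM carry no depth.

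PRMT6 is a nuclear enzyme that methylates histone H3. It lies on the plus strand of chromosome 1, from 107056679 to 107067636. It was at 36.8 CPM in replicate 1 and 37.3 CPM in replicate 2, with 19.9 ± 0.151 TPM (SD, n = 2). PRMT6-201, with a single exon and 375 residues, held 99.1% and 99.5% of TPM, the highest top share of the family in either library. PRMT1 exceeded PRMT6 by 19.8-fold in mean TPM ratio (SD 0.510, n = 2).

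PRMT8 is the paralogue most like PRMT1 and is known for expression in neurons and for attachment to the plasma membrane. It had 0 reads in both libraries, so that a level of up to 0.124 CPM (replicate 1) and 0.135 CPM (replicate 2), that of 3 reads, remains possible from counting, and its 4 transcripts were listed at 0 TPM. The gene lies on the plus strand of chromosome 12, from 3381349 to 3593973. RefSeq (GRCh38.p14) gives windows for a pair of start sites, each running from 250 bases before to 50 bases after the start. They are printed beside that of PRMT1 because these are the gene without a read and the highest gene of the family, with each CG dinucleotide in capitals. CG was searched as these 2 letters, which read the same on both strands.
PRMT8 chr12:3381099-3381398 plus strand: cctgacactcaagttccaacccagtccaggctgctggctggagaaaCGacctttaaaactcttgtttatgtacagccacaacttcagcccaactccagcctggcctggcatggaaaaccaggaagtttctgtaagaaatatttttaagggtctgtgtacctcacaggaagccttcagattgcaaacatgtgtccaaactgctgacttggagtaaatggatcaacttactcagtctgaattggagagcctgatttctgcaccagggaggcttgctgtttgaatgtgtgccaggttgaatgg
PRMT8 chr12:3490953-3491252 plus strand: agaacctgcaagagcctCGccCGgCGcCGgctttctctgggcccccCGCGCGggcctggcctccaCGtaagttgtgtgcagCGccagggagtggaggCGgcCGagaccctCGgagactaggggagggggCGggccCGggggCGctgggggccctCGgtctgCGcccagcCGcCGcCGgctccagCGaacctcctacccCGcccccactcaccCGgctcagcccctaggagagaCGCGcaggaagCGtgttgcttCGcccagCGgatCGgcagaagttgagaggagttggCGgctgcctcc
PRMT1 chr19:49677021-49677320 plus strand: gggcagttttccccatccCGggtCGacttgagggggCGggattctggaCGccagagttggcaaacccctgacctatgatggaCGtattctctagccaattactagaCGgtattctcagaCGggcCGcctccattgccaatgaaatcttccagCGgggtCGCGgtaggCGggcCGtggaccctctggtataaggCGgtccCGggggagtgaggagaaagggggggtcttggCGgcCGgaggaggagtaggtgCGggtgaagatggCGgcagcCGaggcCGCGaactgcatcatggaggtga
The upstream PRMT8 window holds 1 CG, and 3.96% of the 35116 windows of this length in the table hold fewer. The downstream PRMT8 window holds 30, more than 77.6% of windows, and that of PRMT1 holds 22, more than 62.3%. Over all windows the median is 14, and 96.0% hold at least 1. The windows of the other 8 genes hold from 20 in PRMT5 to 56 in CARM1. These counts describe sequence, and no methylation was measured.

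PRMT5 is the main symmetric arginine methyltransferase and modifies Sm proteins, histones and PIWI proteins. It lies on the minus strand of chromosome 14, from 22920511 to 22929585. It had 3348 reads, or 139 CPM, in replicate 1 and 3261 reads, or 147 CPM, in replicate 2. By mean CPM 89.6% of detected genes were lower than PRMT5. By length it was at 98.1 TPM in replicate 1 and 97.3 TPM in replicate 2. PRMT5-202, of 637 residues, held 66.5% and 66.9% of that. PRMT5-213, of 593 residues, held 12.0% in replicate 1 and 15.9% in replicate 2. Its coding sequence lacks 132 consecutive bases of PRMT5-202, in capitals here between 15 flanking bases. They are coding exon 3, chr14:22928126-22928211, and the first 46 bases of coding exon 4, chr14:22927615-22927660.
PRMT5-202: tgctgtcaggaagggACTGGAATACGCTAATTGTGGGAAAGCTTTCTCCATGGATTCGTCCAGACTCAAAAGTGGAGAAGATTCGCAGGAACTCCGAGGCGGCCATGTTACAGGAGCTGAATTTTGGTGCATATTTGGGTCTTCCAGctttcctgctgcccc
Among transcripts that contain or skip coding exon 3, those with it held 85.1% of TPM in replicate 1 and 82.2% in replicate 2. PRMT5-AS1 overlaps 27.1% of PRMT5's exonic bases on the opposite strand but had 0 and 3 reads, and the divergent transcript PRMT5-DT had 3 and 2. The pseudogenes PRMT5P1, PRMT1P1 and CARM1P1 had 0 reads in both libraries.

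WDR77 lies on the minus strand of chromosome 1, from 111439890 to 111449376. It was at 60.7 CPM in replicate 1 and 59.8 CPM in replicate 2, or 75.5 and 76.9 TPM. The coding transcript WDR77-201, of 342 residues, held 86.9% and 85.0% of TPM, and WDR77-204, annotated as a processed transcript, held 10.7% and 11.9%. In the complex both proteins are present in equal number. Their RNA was less even, with a WDR77 to PRMT5 ratio of 0.770 in replicate 1 and 0.790 in replicate 2 by TPM. The ratio was lower with the gene table. It averaged 0.522 by CPM per kilobase of merged exons and 0.422 by reads with no length. The tables differ for WDR77, whose reads fell short of the number predicted from TPM times transcript length by a log2 ratio of -0.96 in replicate 1 and -0.99 in replicate 2, while the median over genes with at least 10 TPM was 0.08 in both. The 5th percentile over those genes was -1.68 and -1.64, so WDR77 lay within their range. With merged exon lengths the mean log2 ratio was 0.17 instead. WDR77 shares 24.0% of its exonic bases with AL390195.1 on the same strand, which had 7 and 9 reads, and 12.5% with ATP5PB on the opposite strand, which had 6880 and 6607 reads. Of the 4 WDR77 transcripts 3 had the same version in GENCODE 29, so a length used in the prediction may differ. The part of the overlaps and of the version in the shortfall was not tested.

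PRMT9, the other type II gene, methylates the splicing factor SF3B2. It lies on the minus strand of chromosome 4, from 147637785 to 147684230. Its 188 reads in replicate 1 correspond to 7.79 CPM, with a 95% Wilson interval from 6.75 to 8.98. Its 187 reads in replicate 2 correspond to 8.42 CPM, from 7.30 to 9.72, and the intervals overlap. PRMT5 was 27.7 ± 1.26 times as high by TPM (SD, n = 2). Alone in the family, its top transcript was not coding. PRMT9-204, annotated as a target of nonsense-mediated decay with a reading frame of 66 residues, held 70.7% of TPM in replicate 1 and 69.0% in replicate 2. PRMT9-201, of 845 residues, held the rest of the TPM matched to GENCODE 29, 29.3% and 31.0%, which is 1.00 and 1.12 TPM. Among 11152 protein-coding genes with at least 1 TPM and more than 1 transcript, 7.24% had a top transcript that was not coding in both libraries, and among 6932 with at least 10 TPM 6.58% did. Apart from shorter ends, PRMT9-204 differs from PRMT9-201 by the loss of exon 2 of 12, chr4:147680323-147680471, whose 149 bases are no multiple of a codon. The exon is in capitals, with 15 flanking bases on each side.
PRMT9-201: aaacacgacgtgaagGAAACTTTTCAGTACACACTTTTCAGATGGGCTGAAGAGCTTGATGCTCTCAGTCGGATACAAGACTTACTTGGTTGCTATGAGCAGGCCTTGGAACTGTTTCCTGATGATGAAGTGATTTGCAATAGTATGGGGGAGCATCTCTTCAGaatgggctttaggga
The shares rest on the gene's few reads, and their counting error is unknown. In bulk RNA, a low level in all cells cannot be told apart from a higher level in some of them.

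PRMT7, the type III enzyme, lies on the plus strand of chromosome 16, from 68310974 to 68358563. It was at 53.9 CPM in replicate 1 and 56.0 CPM in replicate 2, or 32.5 and 36.2 TPM. Its TPM were spread over many transcripts, and 10 of its 26 in the table were above 0. The coding transcript PRMT7-203, of 642 residues, held 45.7% in replicate 1 and 41.1% in replicate 2. PRMT7-226, coding but annotated without its end, held 22.6% and 26.7%, and the retained intron PRMT7-214 held 12.5% and 10.5%. Its reads exceeded the prediction from TPM by a log2 ratio of 0.73 in replicate 1 and 0.69 in replicate 2. The 95th percentile over genes was 0.63 and 0.65, and PRMT7 was the only member above it. With merged exon lengths its mean log2 ratio was -0.57. Of the 26 PRMT7 transcripts 22 had the same version in GENCODE 29, so lengths used in the prediction may differ. The part of the version in the excess was not tested.

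Across the 9 genes with TPM, the top transcript was the same in both libraries in all 9. Among 7040 genes with at least 10 TPM and more than 1 transcript, a set that includes 8 of them, it differed in 6.9%. Protein-coding transcripts held at least 92.1% of TPM in both libraries in PRMT1, CARM1, PRMT5 and PRMT6. The share was lower in PRMT2, at 75.0% and 76.6%, in PRMT7, at 68.7% and 70.6%, and in PRMT9, at 29.3% and 31.0%. PRMT3 stood at 88.5% in replicate 1 and 97.1% in replicate 2, and WDR77 at 88.9% and 86.6%.

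**Figure D3:**
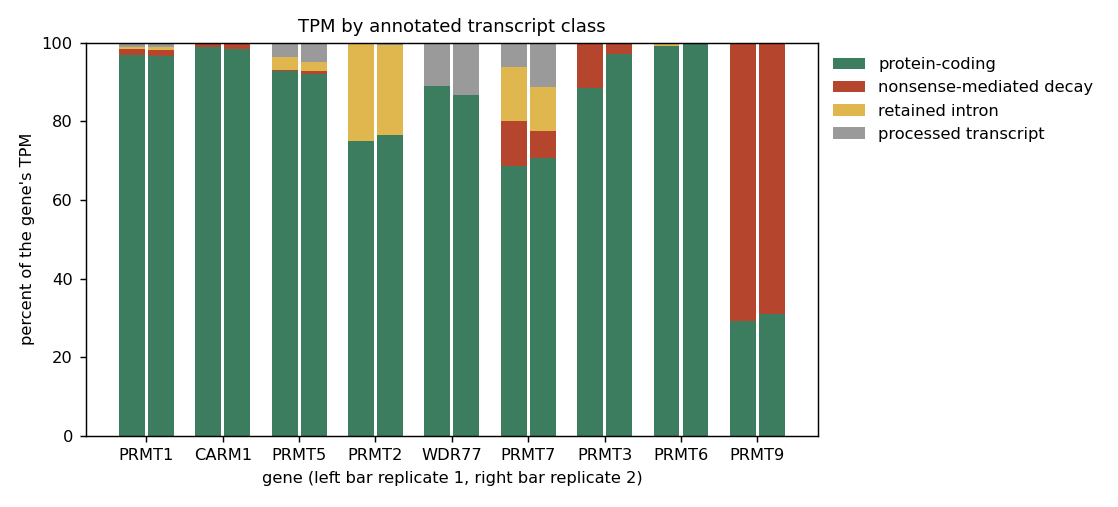
Share of each gene's TPM, in percent, by the GENCODE 29 class of its transcripts, with replicate 1 as the left bar and replicate 2 as the right. PRMT9 is the only gene where the class of nonsense-mediated decay leads, at 70.7% and 69.0%, and PRMT2 has the largest part in retained introns, 25.0% and 22.9%.

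The replicates were compared with a two-sided exact binomial test on reads over the 15299 genes that passed a filter on low counts (edgeR, Benjamini-Hochberg adjustment). The test compares these 2 libraries, not conditions. Its p-values treat reads as independent and cover counting error only. Of the 9 members tested, 1 passed the threshold, PRMT1, which was higher in replicate 2. Over all genes tested 13.1% passed, 6.49% as higher and 6.65% as lower. The share among the members is near this, but all genes tested include many with fewer reads and are no matched background. The difference in PRMT1 was 0.07 on the scale of log2(CPM + 1), replicate 2 minus replicate 1 (edgeR exact binomial test, adjusted p = 0.0119). PRMT5 was next with a log2 difference of 0.08, which did not pass (edgeR exact binomial test, adjusted p = 0.0866). The log2 differences of the others lay between -0.07 in PRMT2 and 0.10 in PRMT9. Over the 9 members the median size of the difference was 0.055 log2 units, against 0.0995 over all genes tested, which include many genes with fewer reads.

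**Figure D4:**
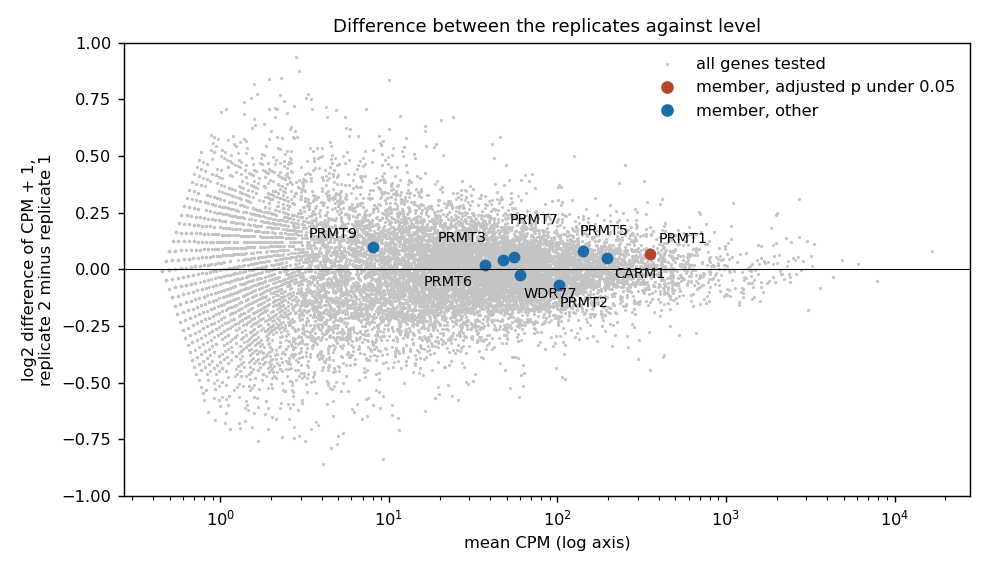
Log2 difference of CPM + 1, replicate 2 minus replicate 1, against mean CPM on a log axis, for the 15299 genes tested (grey; the axis runs from -1 to 1, and genes beyond it are not shown) and the 9 members tested. The largest difference of a member is 0.10 in PRMT9, and of the members PRMT1 alone passes the test.

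Genes around the enzymes were then described in 6 lists. The share of all genes tested that passed, given beside the lists, covers many genes with fewer reads. At equal size a difference passes less readily in those, so that share is no matched background. All 4 PRMT5 partners were detected. CLNS1A (pICln), which directs the complex to Sm proteins, was at 131 CPM in replicate 1 and 137 CPM in replicate 2. RIOK1, an alternative adaptor, was at 31.4 and 29.2 CPM, and COPRS, which guides PRMT5 to histones, had 677 and 709 reads. PRDM1, the germ cell repressor, was lower in replicate 2, at 95.8 and then 84.1 CPM, a log2 difference of -0.19 (edgeR exact binomial test, adjusted p = 9.2e-04). Its difference was -0.06 by summed TPM on the scale of log2(TPM + 1). It was the only partner that passed, 1 of 4, against 13.1% of all genes tested.

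Methyl donor genes were all detected, 7 of 7. MAT2A, which makes S-adenosylmethionine, was at 262 CPM in replicate 1 and 259 CPM in replicate 2. AHCY, which clears the S-adenosylhomocysteine that all these enzymes release, was at 979 and 992 CPM. MTAP, which degrades methylthioadenosine, an inhibitor of PRMT5, was present at 51.2 and 51.1 CPM. Between replicates MTR, the methionine synthase, was the only one of the 7 to pass, at a log2 difference of -0.17 (edgeR exact binomial test, adjusted p = 0.0259), where all genes tested gave 13.1%. By summed TPM its log2 difference was -0.02.

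Tudor-domain readers split. Of 13 genes, 9 were detected by CPM and 4 were not: SMN2, TDRD1, TDRD6 and STK31. SND1 was at 209 CPM in replicate 1 and 211 CPM in replicate 2, and TDRD12, a PIWI pathway gene, at 171 and 169 CPM. TDRD1 had 8 and 7 reads, and TDRD6 had 3 in each library. SMN1 and SMN2 are near-identical copies, so the split of 617 and 534 reads in SMN1 against 5 and 1 in SMN2 is uncertain. The transcript table lists SMN2 at 0.334 TPM in replicate 1 and 9.82 TPM in replicate 2. TDRD9, a piRNA pathway helicase, was the only reader that passed between replicates, 1 of the 9 tested against 13.1% of all genes, with a log2 difference of 0.25 (edgeR exact binomial test, adjusted p = 0.0241).

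All 17 genes of methylated substrates were detected, among them the Sm genes SNRPB, SNRPD1 and SNRPD3 and the genes EWSR1, TAF15, FBL (fibrillarin) and NCL (nucleolin). Between replicates 6 passed, and 6 of the 6 were lower in replicate 2. Among them were SNRPD1, TAF15, NCL, GAR1 and SF3B2, with log2 differences from -0.07 in SF3B2 to -0.24 in GAR1. The median log2 difference of the list was -0.02, against -0.0074 over all genes tested, of which 6.65% were called lower. By summed TPM the log2 difference of SF3B2 was larger, at -0.11. NCL was at 1249 CPM in replicate 1 and 1132 CPM in replicate 2. The calls of SNRPD1 and SF3B2 were lost under other settings, up to an adjusted p of 0.0868 and 0.0697 (edgeR exact binomial test).

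Of the 7 other regulators and coactivators, all were detected and 4 passed, against 13.1% of all genes tested, which include many with fewer reads. The acetyltransferase genes EP300 and CREBBP and the CARM1 partner NCOA3 were lower in replicate 2, by log2 differences of -0.28, -0.15 and -0.22. BTG2, which binds PRMT1, was higher at a log2 difference of 0.19, a call lost under other settings up to an adjusted p of 0.0752 (edgeR exact binomial test). By summed TPM the log2 difference of EP300 was -0.06, that of NCOA3 was -0.23, and CREBBP went the other way, at 11.9 and then 12.6 TPM. Among 7 other arginine-modifying enzymes, JMJD6, the peptidylarginine deiminase gene PADI2 and the mitochondrial methyltransferase gene NDUFAF7 were detected. NDUFAF7, at 167 and 182 CPM, passed as higher in replicate 2 with a log2 difference of 0.13 (edgeR exact binomial test, adjusted p = 9.5e-04), and the difference was 0.21 by summed TPM. Of the 4 genes of this list that were tested it alone passed, against 13.1% of all genes. PADI1 had 0 reads in both libraries, PADI4 had 1 and 0, PADI6 had 2 in each, and PADI3 had 17 and 10.

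**Figure D5:**
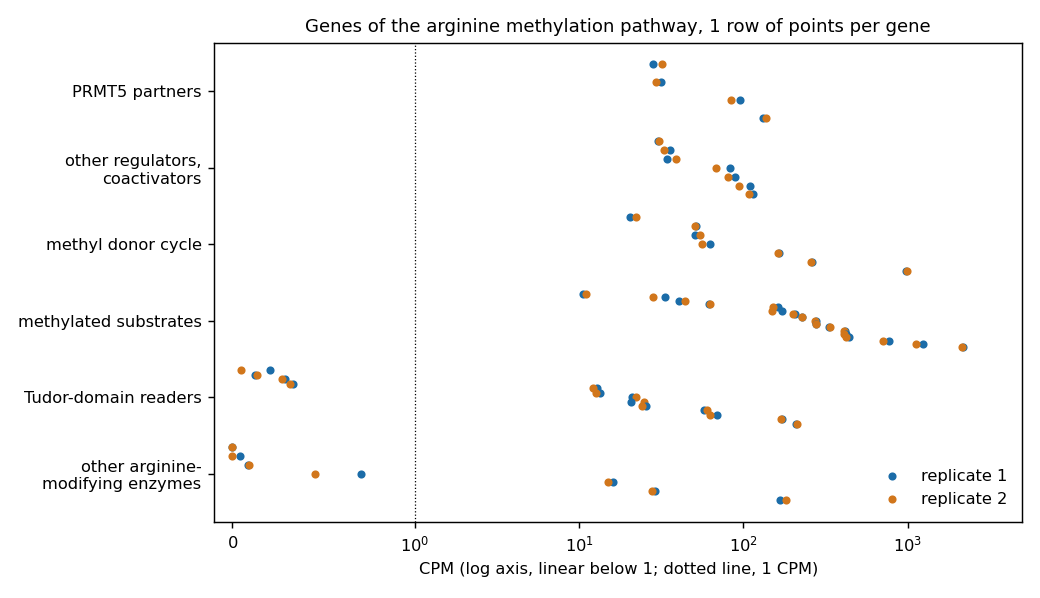
CPM of the genes in the 6 lists in both libraries, on a log axis that is linear below 1, with 1 row of points per gene and a dotted line at 1 CPM. Genes below the line occur among the Tudor-domain readers (4 of 13) and the other arginine-modifying enzymes (4 of 7).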

How the data were processed

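The authors deposited a table of TPM per transcript (Salmon 1.10.2, per the submitters' processing notes) and a table per gene that its name calls CPM. Trim Galore 0.6.10, STAR 2.7.11a, DESeq2 and the build GRCh38 are also in those notes; the annotation and the counter are not given in the sources used here. The deposited signal per gene equals whole reads times a constant of each library: 100% of values above 0 were whole multiples of 1.02 in replicate 1 and 1.12 in replicate 2 (tolerance 1e-06 reads). Reads were recovered by that step and scaled to CPM. The limit beside a gene at 0 is that of 3 reads, from counting error. Intervals cover counting error only. No column of values was left unused.

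All 62700 gene identifiers matched the symbol table given, and 42343 have a symbol other than the identifier. Transcripts were assigned through GENCODE 29, without version, for 201667 of 251955, carrying 94.8% of TPM in each library. The others are not used here. Any transcript of a gene among them would be missing from its summed TPM, transcript shares and exon inclusion. In each gene with TPM at least 1 transcript had another version in the file, so its length may differ.

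Replicates were tested with edgeR 4.0.16 (binomTest, TMM, filterByExpr, adjusted p threshold 0.05). The test was also run on simulated pairs whose only random error was that of counting. That run cannot check it against other variation between replicates. Detection was 1 CPM in both libraries. Exon inclusion was TPM of transcripts containing an exon over TPM of those that contain or skip it. A skipping transcript had to span the exon, while one that begins or ends with the exon counted as containing it. These exons were chosen after their values were seen. Named were all members, genes with related symbols, the 6 lists, and transcripts with at least 10% of a gene's TPM in both libraries or the top share. Members and lists were chosen with earlier results of these data known. One gene of the lists is counted but not reported by name here. Alternatives covered scaling (TMM, DESeq2 1.42.0, deposited factors), filter, thresholds, pseudocount, length measure and each library alone. Coordinates are GRCh38.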

Additional observations from a re-analysis of the deposited data

How the results depend on the processing

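No paired analysis was possible because only DDX53 libraries were analysed. The number of members detected and the number beyond counting noise kept within 1.5 times under the alternatives tried, and PRMT1 was the called member in each setting of the test (adjusted p from 0.00369 to 0.0255). The order of levels, the ratio and the type shares moved with the measure of length. With CPM per kilobase of merged exons, 5 of 10 genes kept their place, the WDR77 to PRMT5 ratio was 0.522 and types I, II and III held 75.1%, 22.0% and 2.95% of the family. With reads and no length these were 0.422 and 78.2%, 16.0% and 5.83%. With protein-coding transcripts alone the ratio was 0.741, and types I and III held 84.2% and 3.28%. Their main values were 0.780, 82.8%, 12.8% and 4.35%. These settings change the length or the transcripts by construction. For single genes, summed TPM gave the other sign for the replicate difference of PRMT2 (0.0086), PRMT5 (-0.011) and WDR77 (0.025), none of which was called. Depth limits PRMT9 and PRMT8, and leaves the error of transcript shares unknown.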
